A study of Mus musculus with 6 samples.

Results

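Genes of the vessel wall, of fibroblasts and of the basement membrane were examined in microglia libraries from the brainstem of young mice. The 42 genes were taken by symbol from a written list of pericyte, smooth muscle and fibroblast markers with collagens and laminins, and all 42 were found among the 26789 genes of the table. They comprise 13 mural and smooth muscle genes, 19 genes of the fibrillar and fibroblast matrix and 10 basement membrane genes. Mural cells are the pericytes and smooth muscle cells that wrap brain vessels, and fibroblasts sit around larger vessels and in the meninges. The basement membrane is the thin sheet of type IV collagen, laminin, nidogen and heparan sulfate proteoglycan that lies between the endothelium, the mural cells and the astrocyte endfeet. Fibrillar collagens and small proteoglycans, which fibroblasts make, form the looser matrix around it.

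The study asked whether a maternal diet low in sodium during early gestation changes gene expression in microglia of the nucleus of the solitary tract (NST), the brainstem target of the taste nerves. RNA was sequenced from 3 libraries of control mice and 3 of E3–E12 diet mice, all P15, and by the study's methods each library pooled the rostral NST of 6 littermates from 1 litter. Dams of E3–E12 diet mice received low-sodium chow and distilled water from E3 to E12, then standard chow and tap water. Control mice received standard chow throughout development, and the methods give tap water unless stated otherwise. The low-sodium and the standard chow came from different makers. The methods give the background C57Bl/6 for control mice of the terminal field experiments and state no strain for the mice sequenced. They describe cells selected with magnetic beads against CD11b, a surface protein of microglia and other myeloid cells, and RNA amplified before sequencing, whereas the description deposited with the data names laser microdissection and a kit without that amplification step, so the manner of isolation is not settled. Because a library is a pool of littermates, p-values here measure the spread between such pools.

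Values are the authors' normalized counts, and where all libraries of a diet are listed, they stand in the order of replicates 1, 2 and 3. Library totals were 9671119, 17204618 and 11910787 for the controls and 9407141, 11192984 and 14656956 for E3–E12 diet mice. How many reads lie behind a single value cannot be told from the table. Genes are said to be listed at 0 where the table holds an exact 0, which is not read as absence of expression. Of 39 proteasome genes, taken by name only, 1, 2 and 0 were at 0 among the controls and 1 in each E3–E12 diet library. Whether the ones at 0 are used by every cell was not examined.

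Microglia markers were found in every library, and markers of other cell types, given below, were found too. In E3–E12 diet replicate 1 the choroid plexus marker Ttr (38517 normalized counts) lay above every listed microglia marker but Csf1r (53504). All 12 listed microglia markers were above 0 in every library, and Csf1r, the receptor that microglia need for survival, was the most abundant of them throughout. The microglia markers summed to 107309, 526501 and 267855 normalized counts over the control libraries and to 104202, 250048 and 346033 over the E3–E12 diet libraries. Control replicate 2 thus had the highest sum and control replicate 1 and E3–E12 diet replicate 1 the lowest sums, so the spread within each diet was wide and the groups overlapped. Per kilobase of exon, Csf1r had a mean of 21316 normalized counts over the 6 libraries. Among the mural, fibroblast and basement membrane genes only Sparc, with 12665 per kilobase, came near that level, and the next was Rgs5 with 1619.8 per kilobase.

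Control replicate 2 stood apart from the other 5 libraries in these genes. Of the 41 members that averaged at least 10 normalized counts, 25 (61.0%) had their lowest value in control replicate 2, where 33.8% of the 18007 genes tested had theirs. Over the members, the median of the log2 level relative to each gene's own mean was 0.69, -1.51 and 0.40 for the controls and 1.24, -0.38 and 0.17 for E3–E12 diet mice. Levels were thus lowest in control replicate 2 and highest in E3–E12 diet replicate 1, and the diets overlapped. The same library had 10640 genes listed at 0, against 4293 and 4288 for control replicates 1 and 3. E3–E12 diet mice had 3459, 7135 and 7001 such genes. In control replicate 2, 14.6% of the members tested were listed at 0, near the 16.2% of all genes tested. Log2 fold changes are therefore also given without control replicate 2. In bulk samples, fewer cells of a type and less RNA per cell cannot be told apart.

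The summed markers of endothelium and astrocytes were also lowest in control replicate 2, but not those of every cell type. The 13 mural and smooth muscle genes summed to 18649, 4238 and 15143 normalized counts over the control libraries and to 20518, 9192 and 12768 over the E3–E12 diet libraries. Rgs5 carried much of that gap, and without it the sums were 6601, 3765 and 5635 for controls and 9069.8, 4774 and 6483 for E3–E12 diet mice. For 15 markers of brain endothelium, led by the glucose transporter Slc2a1 in 5 libraries and by Pecam1 in control replicate 2, the sums were 21934, 6761 and 22660.3 in the controls and 20894, 17769 and 28463 in E3–E12 diet mice, in the same order of replicates. Both sums were lowest in control replicate 2, where the endothelial markers Itm2a and Ly6c1 and the mural markers Des and Kcnj8 were listed at 0. These are 13.3% of the endothelial and 16.7% of the mural genes tested, near the 16.2% of all genes tested in that library. The 8 astrocyte markers, led by the glutamate transporter Slc1a2 in 5 libraries and by Slc1a3 in control replicate 2, summed to 9266, 1835 and 5606 in the controls and to 9877, 4821 and 5143 in E3–E12 diet mice. Of these, Gfap and Aldh1l1 were listed at 0 in control replicate 2 (25%, against 16.2% of all genes tested). The lowest value lay in that library for 10 of the 15 endothelial and 6 of the 8 astrocyte markers, but Cldn5 (1207) and Pecam1 (3154) had their highest there, and Slc1a3 (1420.1) was lower in 4 other libraries. The 6 markers of border-associated macrophages, the myeloid cells of vessels and meninges, ran the other way, with sums of 5694, 20542 and 7943 among controls and 5144, 9020.5 and 9489 among E3–E12 diet mice. Mrc1 led that list in every library and none of its genes was at 0. The part of cell composition in the values that follow was not tested.

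**Figure D1:**
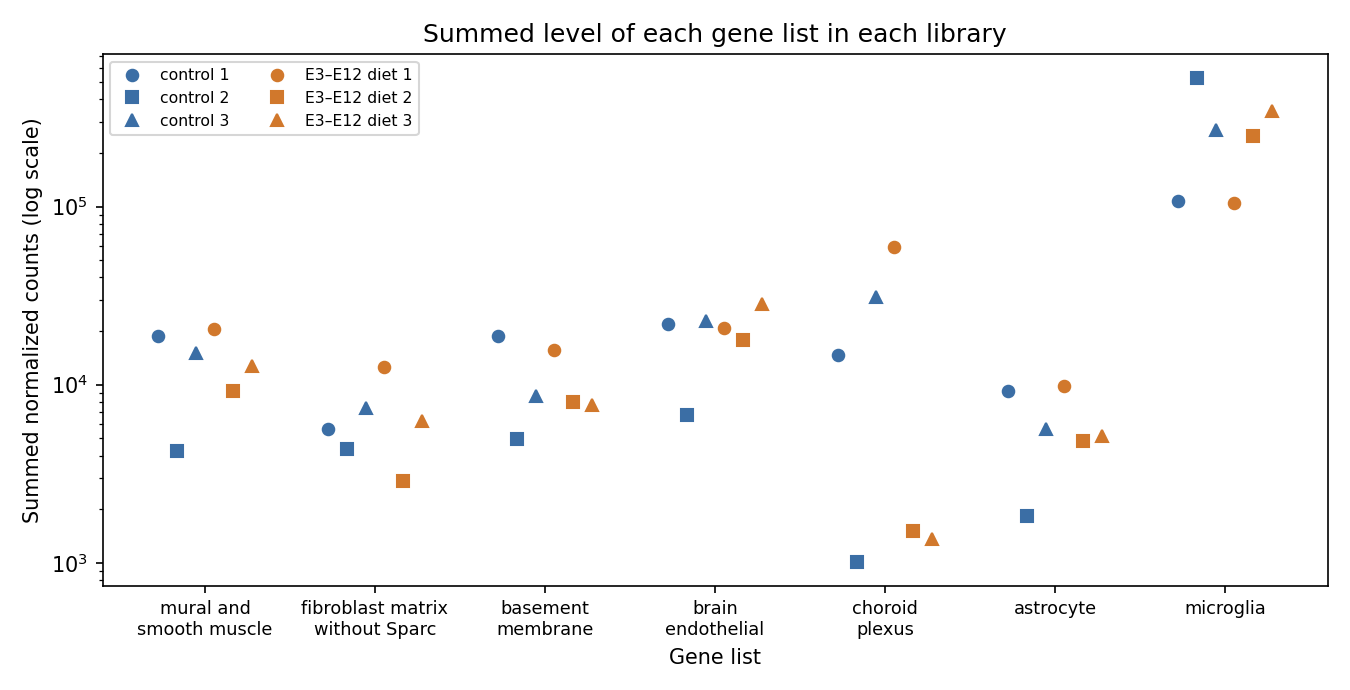
Summed normalized counts (vertical axis, log scale) of 7 gene lists (horizontal axis) in each of the 6 libraries, with controls in blue and E3–E12 diet mice in orange and the symbol giving the replicate number. Control replicate 2 (blue square) has the lowest sum of the mural (4238), basement membrane (4935), endothelial (6761), choroid plexus (1015) and astrocyte (1835) lists and the highest sum of the microglia list (526501).

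No member differed between the diets at the adjusted threshold of 0.1. With limma on log2(normalized count + 1), two-sided, 0 of 41 members passed, as did 0% of all genes tested, and 0 members had an unadjusted p under 0.05, against 327 genes (1.82%) over the whole table. In no member (0 of 41) did every library of one diet lie above every library of the other, against 5.90% of all genes tested. The mean log2 level was higher in E3–E12 diet mice for 29 members (70.7%), against 54.4% of all genes. The median log2 fold change of the members was 0.43, beside 0.09 over all genes, and the median standard error (SE) was 1.01, beside 0.85. The SE was larger than the size of the fold change in 29 of the 41 members (70.7%), much as over all genes (70.6%). Markers of other cell types shifted too. Their median log2 fold changes were 0.94 for brain endothelium (9 of 15 higher) and 0.89 for astrocytes (8 of 8). They were -0.24 for microglia (0 of 12) and -1.12 for the choroid plexus (2 of 10). Without control replicate 2 these medians were, in the same order, -0.33, 0.64, 0.24 and -2.77.

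The direction depended on single libraries. Without control replicate 2 the mean log2 level was higher in E3–E12 diet mice for 16 members (39.0%), against 49.6% of all genes, and the median log2 fold change was -0.18, beside 0.00 over all genes. The sign turned in 15 members (36.6%), against 31.0% of all genes. When E3–E12 diet replicate 1 was left out instead, 21 members were higher, against 51.7% of all genes, and the median was 0.06, beside 0.04. The other omissions left more members higher, 31 without control replicate 1 (median 0.96, against 56.0% of all genes), 30 without control replicate 3 (0.59, 55.2%), 34 without E3–E12 diet replicate 2 (0.74, 55.0%) and 28 without E3–E12 diet replicate 3 (0.51, 54.7%). Without control replicate 2 the groups of 2 members (4.88%) no longer overlapped, Col4a1 and Lama2, against 14.4% of all genes, and 1 member, Col4a1, had an unadjusted p under 0.05 in limma, against 2.38%. Under the other omissions such members were Vtn without control replicate 1 (3.06% of all genes), Col6a3 without control replicate 3 (1.96%) and Col5a1 and Lum without E3–E12 diet replicate 1 (1.93%), with 0 without E3–E12 diet replicates 2 (1.53%) or 3 (1.88%). Leaving out another library also parted the groups of some members, of 7 without control replicate 1 (17.8% of all genes), 6 without control replicate 3 (12.6%), 3 without E3–E12 diet replicate 1 (14.7%) and 4 without E3–E12 diet replicate 2 (13.1%), but of 0 without E3–E12 diet replicate 3 (14.4%).

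**Figure D2:**
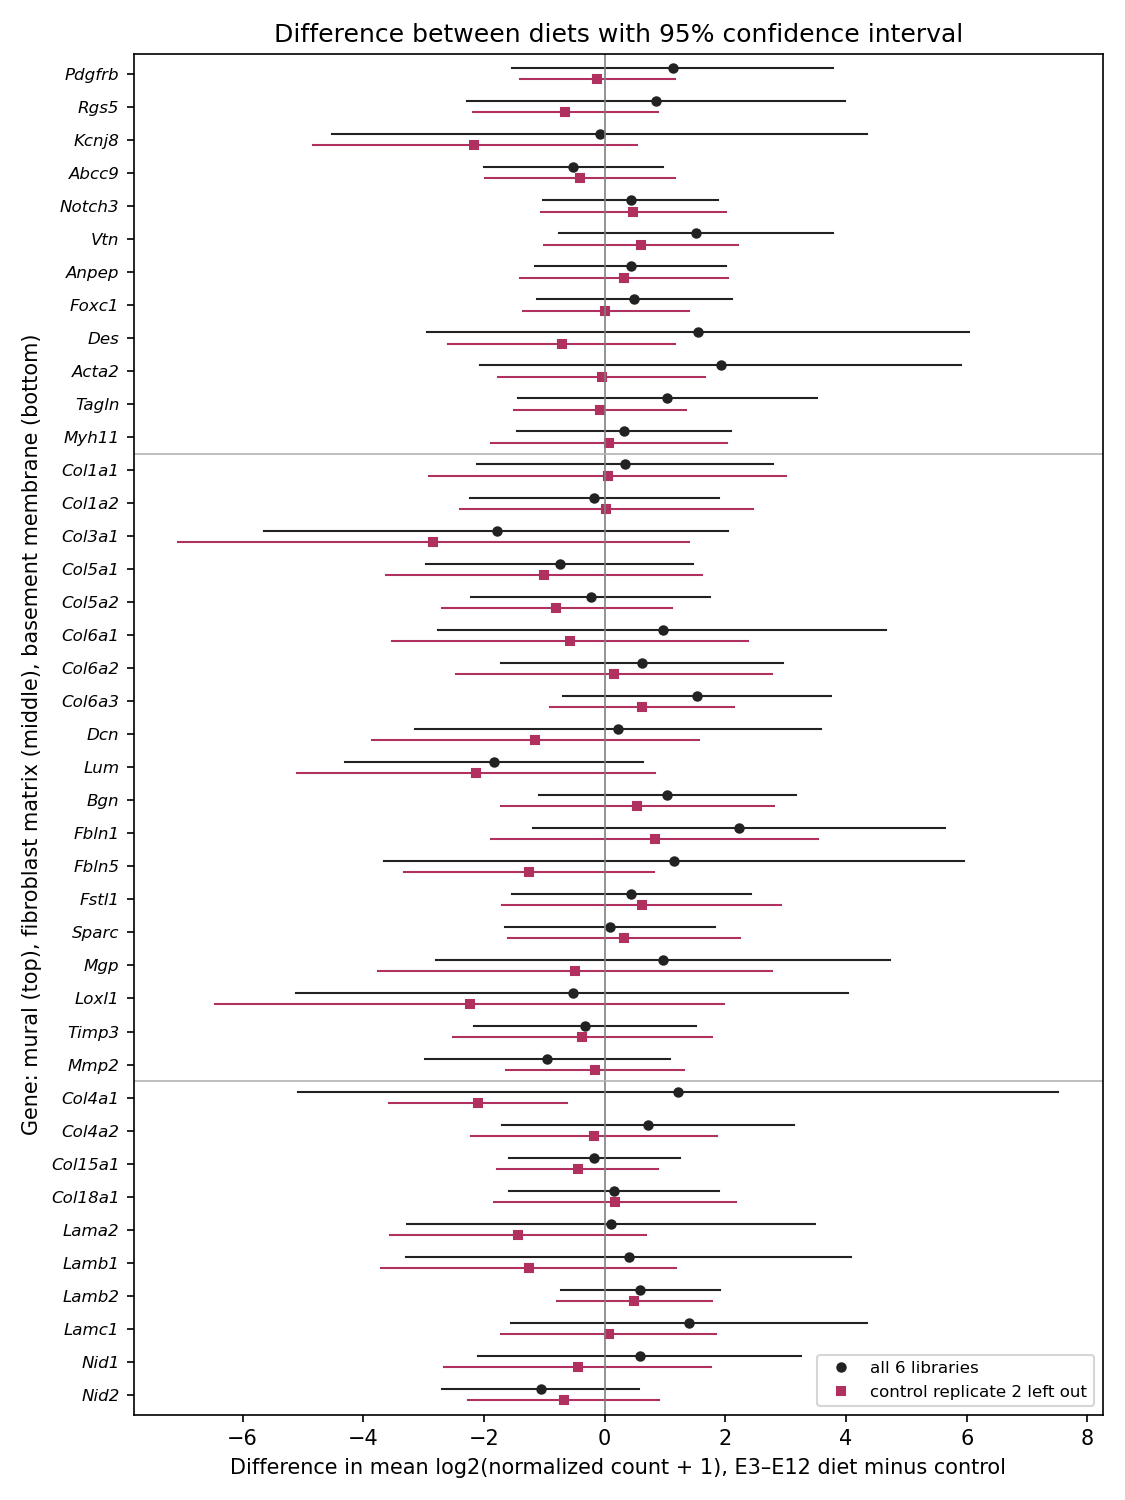
Difference in mean log2(normalized count + 1) between E3–E12 diet mice and controls (horizontal axis) for the 41 members tested (vertical axis), with lines for the 95% confidence interval from limma, over all 6 libraries (black circles) and with control replicate 2 left out (red squares). Every interval over all 6 libraries includes 0, and without control replicate 2 the interval of Col4a1 alone does not, running from -3.57 to -0.63.

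Among the 12 mural and smooth muscle genes tested, 10 had a higher mean log2 level in E3–E12 diet mice (83.3%, against 54.4% of all genes). Their median log2 fold change was 0.67. Without control replicate 2, 5 were higher (41.7%, against 49.6% of all genes), with a median of -0.06. Cnn1, calponin of smooth muscle, had a mean of 5.38 normalized counts and was too low to be tested. Of the 12 tested, 9 had their lowest value in control replicate 2 (75%, against 33.8% of all genes), and 1 each in control replicate 1, control replicate 3 and E3–E12 diet replicate 3. Per kilobase, Rgs5 had the highest mean of the group, followed by Vtn with 273 and Notch3 with 272.

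Rgs5 (ENSMUSG00000026678, chr1:169655501-169695813 of GRCm38) encodes a regulator of G protein signaling that is a standard marker of brain pericytes. The control libraries held 12048, 473 and 9508 normalized counts and the E3–E12 diet libraries 11448, 4418 and 6285. Control replicate 2 was the only library under 4418, while the other 2 controls lay beside the highest E3–E12 diet library, so the groups overlapped. The means were 7343 ± 6084 in controls and 7384 ± 3642 in E3–E12 diet mice (SD, n = 3 libraries each). Its log2 fold change was 0.85 (SE 1.31, 95% confidence interval -2.29 to 3.99, limma adjusted p = 0.999), and -0.65 (SE 0.61) without control replicate 2.

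Vtn (ENSMUSG00000017344, chr11:78499091-78502324) encodes vitronectin, an adhesive glycoprotein that pericytes secrete in the brain. It was at 801, 69.5 and 279.9 normalized counts in controls, against 686, 624 and 865 in E3–E12 diet mice. The 3 E3–E12 diet libraries lay close together, and only control replicate 1 reached their range, so the groups overlapped through 1 control. Vtn had the smallest limma p of the mural genes, with a log2 fold change of 1.52 (SE 0.95, 95% confidence interval -0.75 to 3.78, adjusted p = 0.999), which was 0.60 without control replicate 2 and 2.35 without control replicate 1.

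Notch3 (ENSMUSG00000038146, chr17:32120820-32166852), the Notch receptor of mural cells, did not share the low value of control replicate 2. The controls had 2039, 1902 and 1471 normalized counts and E3–E12 diet mice 3968, 1574 and 2233. E3–E12 diet replicate 1 was the highest and control replicate 3 the lowest, with overlap of the groups. Its log2 fold change of 0.43 (SE 0.61, 95% confidence interval -1.02 to 1.88, limma adjusted p = 0.999) was 0.47 without control replicate 2, and it was 0.07 without E3–E12 diet replicate 1. Of its exon bases, 6.03% also lie in exons of Gm17276, and whether the counting used strand is not given in the sources used here.

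The other members of this group include the contractile proteins and the receptors of mural cells. Pdgfrb, the receptor through which endothelial cells recruit pericytes, ran from 59.9 in control replicate 2 to 980.2 normalized counts in control replicate 1. Acta2, smooth muscle actin, ran from 5.93 in control replicate 2 to 648 in control replicate 3, and Tagln, transgelin, from 5.93 to 95.4 in the same libraries. Tagln is uncertain because 67.9% of its exon bases lie in exons of Gm48529 and Pcsk7. Myh11, the smooth muscle myosin heavy chain, had its lowest value in control replicate 1 (347) and its highest in control replicate 3 (1184), so control replicate 2 was not the lowest library for every contractile gene. Des, the intermediate filament desmin, ran from 0 to 113 normalized counts, Foxc1, a transcription factor of mural cells, from 139 to 522, and Anpep, a surface aminopeptidase of pericytes, from 190.4 to 616. Among all these members the log2 fold changes lay between -0.52 (Abcc9) and 1.92 (Acta2). Without control replicate 2 those of Abcc9 and Acta2 were -0.41 and -0.05, that of Des turned from 1.54 to -0.71 and that of Pdgfrb from 1.13 to -0.13.

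Kcnj8 and Abcc9, the pore and the sulfonylurea receptor of the potassium channel of pericytes and smooth muscle, parted in control replicate 2 and were compared after their values were seen. Kcnj8 reached 145, 0 and 36.6 normalized counts among controls, and 48.7, 11.2 and 6.61 among E3–E12 diet libraries. For Abcc9 the values were 1113, 1005 and 586 in the controls and 884, 650.5 and 389 in E3–E12 diet mice. Abcc9 was thus close to its highest level in the library where Kcnj8 was listed at 0, and the groups of both genes overlapped. The log2 fold change of Kcnj8 was -0.08 (SE 1.85), and it was -2.16 (SE 1.06) without control replicate 2. Per kilobase, the level of Kcnj8 was between 0.0558 and 0.429 times that of Abcc9 in the 5 libraries where it was above 0.

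Of 24 other mural genes 23 were tested. A higher mean log2 level in E3–E12 diet mice was found for 21 (91.3%, against 54.4% of all genes) and 0 passed the limma test, with a median log2 fold change of 0.70, and without control replicate 2 there were 11 higher (47.8%, against 49.6% of all genes) and a median of -0.12. Cox4i2, a subunit of cytochrome oxidase found in pericytes, was at 30.2, 0 and 13.8 normalized counts in controls, against 15.7, 50.1 and 48.6 in E3–E12 diet mice. Its log2 fold change was 2.17 (SE 1.34), and that of Myl9, a myosin light chain of smooth muscle, 1.58 (SE 1.07, limma adjusted p = 0.999 for both), and they fell to 0.70 and 0.45 without control replicate 2. The groups overlapped in both, and both were lowest in control replicate 2.

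Of 14 signals exchanged between endothelial and mural cells, 10 had a higher mean log2 level in E3–E12 diet mice (71.4%, against 54.4% of all genes). Their median log2 fold change was 0.42. Without control replicate 2, 6 were higher (42.9%, against 49.6% of all genes), with a median of -0.11. Notch1, the Notch receptor of endothelial and many other cells, reached 3959, 3286 and 3816 normalized counts among controls, and 1946, 2594 and 1380.2 among E3–E12 diet libraries. It was the only gene of this list without overlap (1 of 14 or 7.14%, near the 5.90% of all genes), every E3–E12 diet library lying under every control, and its log2 fold change was -0.94 (SE 0.56, limma adjusted p = 0.999; exact permutation p = 0.1, the smallest that 3 libraries against 3 allow), or -1.02 without control replicate 2. Acvrl1, an endothelial receptor for bone morphogenetic proteins, had a log2 fold change of 1.38 (SE 0.86, limma adjusted p = 0.999), or 0.55 without control replicate 2, and its groups overlapped.

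The fibrillar and fibroblast matrix genes were led by Sparc. Of 19 genes, 11 had a higher mean log2 level in E3–E12 diet mice (57.9%, against 54.4% of all genes), with a median log2 fold change of 0.22. Without control replicate 2, 8 were higher (42.1%, against 49.6% of all genes), with a median of -0.37. In 8 of the 19 the highest value was in E3–E12 diet replicate 1 (against 22.7% of all genes), and in 9 the lowest was in control replicate 2 (against 33.8%) and in 5 in E3–E12 diet replicate 2 (against 11.3%). Without Sparc, the group summed to 5632, 4350.0 and 7391 normalized counts over the control libraries and to 12563, 2867 and 6283 over the E3–E12 diet libraries. E3–E12 diet mice therefore held both the highest and the lowest sum.

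The summed markers of the choroid plexus, the epithelium that makes cerebrospinal fluid beside the fourth ventricle, were also highest in E3–E12 diet replicate 1. Of these markers, Prlr was higher in control replicate 3 (385 normalized counts against 329). The 10 markers summed to 14669.9, 1015 and 30879 normalized counts in the controls and to 59137, 1503 and 1363 in E3–E12 diet mice, in order of replicate. Ttr was the most abundant in control replicate 3 and E3–E12 diet replicate 1, Kl in control replicate 2 and Enpp2 in the remaining 3 libraries. Listed at 0 were Folr1, Otx2 and Calml4 in control replicate 2, Aqp1, Otx2, Clic6 and Calml4 in E3–E12 diet replicate 2 and Calml4 in E3–E12 diet replicate 3. Of all genes tested, 16.2%, 5.63% and 5.46% were listed at 0 in these libraries, in the same order. The part of the choroid plexus markers in the fibroblast values was not tested.

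Sparc (ENSMUSG00000018593, chr11:55394500-55423183) encodes a collagen-binding glycoprotein that endothelial cells, fibroblasts and microglia all make. The control libraries held 22291, 57793 and 56893 normalized counts and the E3–E12 diet libraries 28156, 35918 and 86795. In contrast to most members it was high in control replicate 2 and low in control replicate 1 and E3–E12 diet replicate 1, the pair of libraries in which the microglia markers were lowest too, and the groups overlapped. Means were 45659 ± 20242 in controls and 50289.8 ± 31852 in E3–E12 diet mice (SD, n = 3 libraries each). The log2 fold change of 0.09 (SE 0.73, 95% confidence interval -1.66 to 1.83, limma adjusted p = 0.999) was 0.32 without control replicate 2, and it turned to -0.37 without control replicate 1 or to -0.40 when E3–E12 diet replicate 3 was left out.

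Bgn (ENSMUSG00000031375, chrX:73483602-73495933) encodes biglycan, a small proteoglycan that binds collagen. Its values were 853, 390.4 and 1408 normalized counts in the controls and 3430.1, 572 and 2074 in E3–E12 diet mice. The highest 2 libraries were of E3–E12 diet mice and the lowest was control replicate 2, but E3–E12 diet replicate 2 lay among the controls. Its log2 fold change was 1.04 (SE 0.89, 95% confidence interval -1.09 to 3.17, limma adjusted p = 0.999), or 0.54 without control replicate 2 and 1.78 when E3–E12 diet replicate 2 was left out.

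Timp3 (ENSMUSG00000020044, chr10:86300372-86349506) encodes an inhibitor of matrix metalloproteinases that stays bound to the matrix. The controls had 1038, 1675 and 3186 normalized counts and E3–E12 diet mice 1983, 639 and 2197. Control replicate 3 was the highest and E3–E12 diet replicate 2 the lowest, so the groups overlapped and control replicate 2 lay in the middle. The log2 fold change was -0.33 (SE 0.77, 95% confidence interval -2.17 to 1.51, limma adjusted p = 0.999), or -0.37 without control replicate 2, and it turned to 0.09 without control replicate 3 or to 0.24 when E3–E12 diet replicate 2 was left out. Exons of Syn3, whose intron holds Timp3, cover 21.3% of its exon bases, so its value is uncertain.

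Lum (ENSMUSG00000036446, chr10:97565128-97572703) encodes lumican, a proteoglycan that spaces collagen fibrils, and had the smallest limma p of all members. The control libraries held 125, 99.2 and 271 normalized counts and the E3–E12 diet libraries 143, 10.1 and 46.4. E3–E12 diet replicates 2 and 3 lay under every control, and E3–E12 diet replicate 1 lay among them. The log2 fold change was -1.83 (SE 1.03, 95% confidence interval -4.30 to 0.64, limma adjusted p = 0.999), or -2.13 without control replicate 2, -2.72 without E3–E12 diet replicate 1 and -0.87 without E3–E12 diet replicate 2.

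The fibrillar collagens were low and uneven. Col1a1 and Col1a2, the chains of type I collagen, were compared with each other after their values were seen. Col1a1 was at 840.3, 284 and 319 normalized counts in controls, against 2229, 227 and 303 in E3–E12 diet mice. For Col1a2 the values were 705, 718 and 332 in the controls and 1415, 205 and 408 in E3–E12 diet mice. Both were highest in E3–E12 diet replicate 1 and lowest in E3–E12 diet replicate 2, and both overlapped between the diets. Per kilobase, Col1a1 was between 0.749 times (control replicate 2) and 2.98 times (E3–E12 diet replicate 1) the level of Col1a2. Col3a1, the chain of type III collagen, ran from 1.75 in E3–E12 diet replicate 2 to 171 normalized counts in control replicate 1, with a log2 fold change of -1.79 (SE 1.61) that was -2.84 without control replicate 2. Col5a1 and Col5a2, whose type V collagen nucleates fibrils, ran from 20.5 to 200.1 and from 24.2 to 128 normalized counts.

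The beaded-filament collagens were lowest in control replicate 2. Col6a1 ran from 1.99 there to 211 normalized counts in E3–E12 diet replicate 1, Col6a2 from 64.0 to 470.1 in the same libraries, and Col6a3 from 14.9 to 212 in E3–E12 diet replicate 2. Their log2 fold changes of 0.96, 0.62 and 1.53 were -0.58, 0.15 and 0.62 without control replicate 2. Among the remaining matrix genes, Mmp2, the gelatinase that cleaves type IV collagen, was highest in control replicate 2 with 457 normalized counts and otherwise ran from 55.9 to 123. Dcn, the proteoglycan decorin, ran from 11.9 to 452 normalized counts and Mgp, an inhibitor of calcification made by vascular cells, from 7.70 to 461, both lowest in control replicate 2. Fstl1, a secreted glycoprotein related to follistatin, ran from 228 in control replicate 3 to 1322 in E3–E12 diet replicate 1. The elastic fiber genes Fbln1, Fbln5 and Loxl1 were each listed at 0 in control replicate 2, and Loxl1 also in E3–E12 diet replicate 2, with highest values of 109.6, 209 and 72.7 normalized counts. In control replicate 2 these were 15.8% of the fibrillar and fibroblast matrix genes, near the 16.2% of all genes tested.

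In the list of 25 other fibroblast genes, 15 of the 23 tested had a higher mean log2 level in E3–E12 diet mice (65.2%, against 54.4% of all genes). The limma test was passed by 0, and the median log2 fold change was 0.63. Without control replicate 2, 8 were higher (34.8%, against 49.6% of all genes), with a median of -0.16. Col14a1, a collagen that binds to the surface of fibrils, was at 68.8, 287 and 114 normalized counts in controls and at 94.3 in E3–E12 diet replicate 1, and 13.7 in replicate 3 was the higher of the other 2 E3–E12 diet values. E3–E12 diet replicates 2 and 3 lay far under the other 4 libraries, and E3–E12 diet replicate 1 lay among the controls. Its log2 fold change was -2.29 (SE 0.99), and that of Col5a3, a chain of type V collagen listed at 0 in control replicate 2, was 3.45 (SE 1.60, limma adjusted p = 0.999 for both). Without control replicate 2 these were -1.73 and 1.70. Igf2, a growth factor of meninges and choroid plexus, led this list in every library.

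The enzymes that build and cross-link collagen had their highest sum in control replicate 2. The list of 23 summed to 8280.4, 19108 and 9842 normalized counts over the control libraries and to 8955, 12654 and 12794 over the E3–E12 diet libraries. The lysyl hydroxylase Plod1 led it in 5 libraries and gave 7682 of the 19108 in control replicate 2. In that library 10 of the 23 enzymes (43.5%) had their lowest value and 8 (34.8%) their highest, beside 33.8% and 26.3% of all genes. Of these genes 15 had a higher mean log2 level in E3–E12 diet mice (65.2%, against 54.4% of all genes) and 0 passed the limma test. Their median log2 fold change was 0.19. Without control replicate 2, 10 were higher (43.5%, against 49.6% of all genes), with a median of -0.02. Colgalt2, which adds galactose to collagen, had a log2 fold change of 1.81 (SE 1.09, limma adjusted p = 0.999), or 0.75 without control replicate 2, and its groups overlapped. Ppib, a prolyl isomerase of the collagen-folding complex, was listed at 0 in control replicates 1 and 2 and had 222 normalized counts in control replicate 3, while E3–E12 diet mice had 20.2, 77.3 and 190.2. Of its exon bases, 25.0% lie in exons of Snx22. Serpinh1, the collagen chaperone, named here after its values were seen, was listed at 0 in every library but control replicate 1 (88.1 normalized counts).

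The basement membrane genes were high in replicate 1 of both diets and low in control replicate 2. The 10 genes summed to 18678, 4935 and 8649 normalized counts over the control libraries and to 15614, 8014 and 7732 over the E3–E12 diet libraries. Of the 10, 5 had their highest value in control replicate 1 and 4 in E3–E12 diet replicate 1 (against 12.9% and 22.7% of all genes), and 7 had their lowest in control replicate 2 (against 33.8%). The mean log2 level was higher in E3–E12 diet mice for 8 genes (80%, against 54.4% of all genes), with a median log2 fold change of 0.49. Without control replicate 2 it was higher for 3 (30%, against 49.6% of all genes), with a median of -0.45. Per kilobase, Col4a2 had the highest mean with 399.6 normalized counts, followed by Nid1 with 284 and Nid2 with 250.1.

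Col4a1 (ENSMUSG00000031502, chr8:11198423-11312826, minus strand) and Col4a2 (ENSMUSG00000031503, chr8:11312805-11449287, plus strand) encode the chains that join, as a pair of the former with 1 of the latter, into the type IV collagen of vessels. Col4a1 reached 1202, 0 and 797 normalized counts among controls, and 354, 166 and 200.4 among E3–E12 diet libraries. The controls thus held both the highest 2 values and the 0, and the E3–E12 diet libraries lay between them. For Col4a2 the values were 5334, 449 and 1564 in the controls and 4814, 1792 and 1916 in E3–E12 diet mice, and the groups overlapped with control replicate 2 lowest.

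The fold change of Col4a1 turned with 1 library. It was 1.21 on the log2 scale (SE 2.64, 95% confidence interval -5.09 to 7.52, limma adjusted p = 0.999), although its 2 highest values were of controls. Without control replicate 2 every E3–E12 diet library lay under both remaining controls, with a log2 fold change of -2.10 (SE 0.58, 95% confidence interval -3.57 to -0.63, limma adjusted p = 1). That of Col4a2 was 0.71 (SE 1.01, 95% confidence interval -1.71 to 3.14, limma adjusted p = 0.999) and -0.18 without control replicate 2. Per kilobase, the level of Col4a1 relative to Col4a2 was 0.200, 0 and 0.452 for the controls against 0.0652, 0.0821 and 0.0927 for E3–E12 diet libraries. All 3 E3–E12 diet libraries had a lower ratio than control replicates 1 and 3, and the 0 of control replicate 2 is not read as a ratio. It was computed after the values of both genes were seen and was not tested.

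These genes lie head to head and share their promoter, which makes their unequal values across libraries of interest. In the RefSeq promoter table for GRCm38.p6 their windows of 300 bases around each start overlap by 78 bases at chr8:11312777-11312854, of which 73.1% are G or C. The bases from the start of Col4a2 (position 11312805) to that of Col4a1 (position 11312826), 22 in all, are in capitals on the plus strand, where the start of each gene lies inside the other.
Shared bases of Col4a1 and Col4a2: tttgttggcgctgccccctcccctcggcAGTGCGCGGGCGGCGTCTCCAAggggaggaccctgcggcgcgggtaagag
Of all 32851 promoter windows of that table, 10.8% overlap one on the opposite strand.

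Nid1 and Nid2, the nidogens that tie laminin to type IV collagen, differed in control replicate 2. Nid1 (ENSMUSG00000005397, chr13:13437551-13512269) reached 4639.6, 273 and 1156 normalized counts among controls, and 3282, 1519 and 981 among E3–E12 diet libraries. For Nid2 (ENSMUSG00000021806, chr14:19751265-19811787) the values were 1327, 2739.9 and 1159.5 in the controls and 791, 1295 and 449.8 in E3–E12 diet mice. Control replicate 2 was therefore lowest for Nid1 and highest for Nid2, and the groups of both overlapped, that of Nid2 through E3–E12 diet replicate 2 alone. The level of Nid1 per kilobase was 0.0743 times that of Nid2 in control replicate 2 and between 0.743 and 3.09 times in the other 5 libraries.

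Nid2 had the smallest limma p of the basement membrane genes, with a log2 fold change of -1.06 (SE 0.69, 95% confidence interval -2.70 to 0.57, adjusted p = 0.999), and -0.68 without control replicate 2. That of Nid1 was 0.58 (SE 1.12, 95% confidence interval -2.10 to 3.26, limma adjusted p = 0.999) and -0.45 without control replicate 2. Of the exon bases of Nid2, 8.45% lie in exons of Rtraf.

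**Figure D3:**
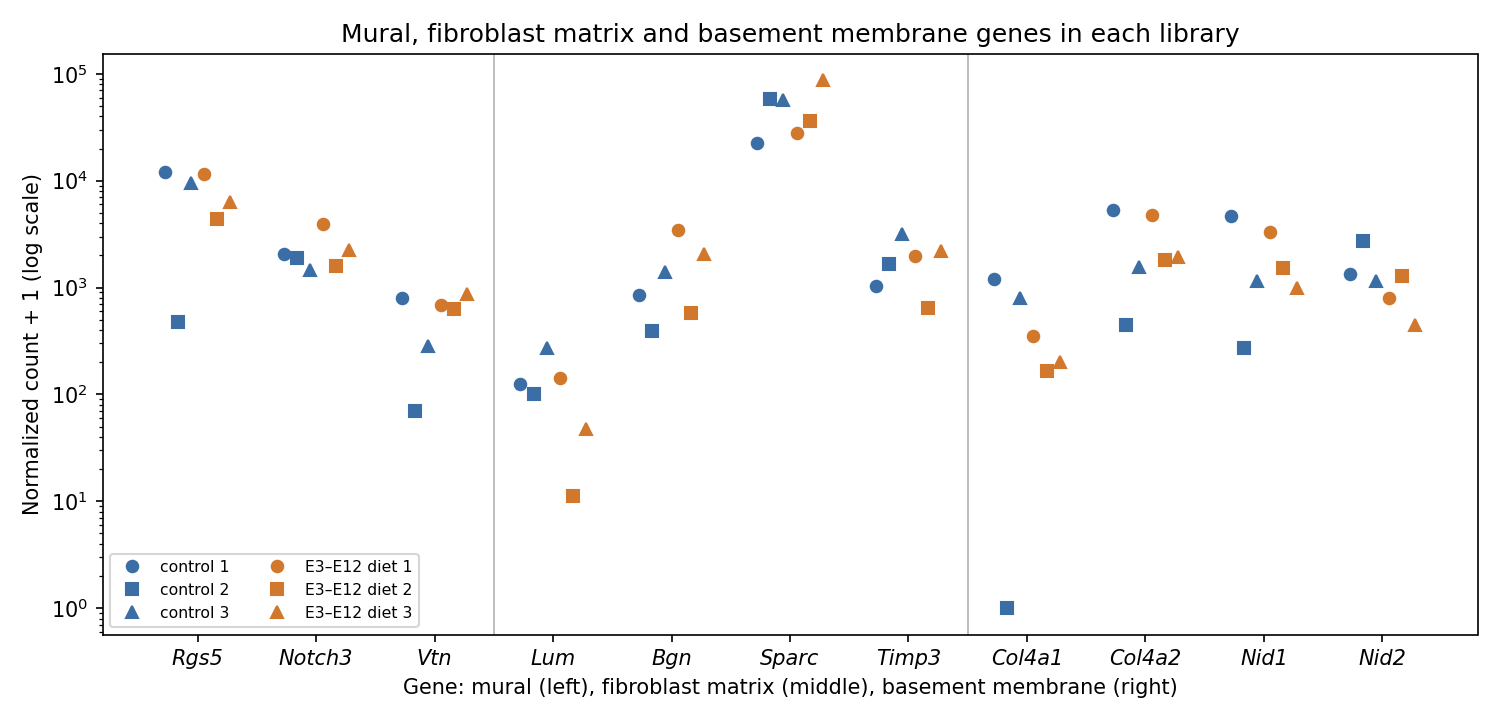
Normalized count + 1 (vertical axis, log scale) of the 11 genes described in full (horizontal axis) in each of the 6 libraries, with controls in blue and E3–E12 diet mice in orange and the symbol giving the replicate number. Control replicate 2 (blue square) is the lowest point for Rgs5, Vtn, Bgn, Col4a1, Col4a2 and Nid1, the highest for Nid2, and lies within the others for Notch3, Lum, Sparc and Timp3.

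The 4 laminin genes were all lowest in control replicate 2. Lamc1, the gamma chain present in most laminins of vessels, ran from 114 in control replicate 2 to 3177 normalized counts in E3–E12 diet replicate 1, and the beta chain Lamb1 from 15.4 to 709.7 in the same libraries. Lamb2, the other beta chain, was nearly even, with 551, 504 and 701 normalized counts in the controls and 1048, 655 and 979 in E3–E12 diet mice. The groups overlapped only through control replicate 3, which lay above E3–E12 diet replicate 2. Lama2, the alpha chain of mural cells and fibroblasts, was at 627, 22.0 and 489.7 in controls, against 418, 77.5 and 264 in E3–E12 diet mice, so that the diets overlapped through control replicate 2 alone. Its log2 fold change was 0.10 (SE 1.41) and, without that library, -1.43 (SE 0.84). Col15a1 and Col18a1, the collagens that carry heparan or chondroitin sulfate chains at the edge of the basement membrane, ran from 611 to 1200.0 and from 107 to 409 normalized counts, with log2 fold changes of -0.17 and 0.15, or -0.44 and 0.17 without control replicate 2.

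The list of 21 other basement membrane genes, led by the heparan sulfate proteoglycan perlecan (Hspg2) in 5 libraries and by Npnt in control replicate 2, summed to 14225, 2521 and 6161 normalized counts over the control libraries and to 13398, 5646 and 5966 over the E3–E12 diet libraries. This was the order of libraries seen for the listed basement membrane genes at both ends, with control replicate 1 highest and control replicate 2 lowest. Of the 18 tested, 15 had a higher mean log2 level in E3–E12 diet mice (83.3%, against 54.4% of all genes) and 0 passed the limma test. Their median log2 fold change was 0.69. Without control replicate 2, 7 were higher (38.9%, against 49.6% of all genes), with a median of -0.32. Col4a4 and Col4a5, minor chains of type IV collagen, had log2 fold changes of 1.14 and 1.09 (SE 0.78 and 1.05, limma adjusted p = 0.999 for both), which fell to 0.57 and 0.13 without control replicate 2, and the groups of both overlapped.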

How the data were processed

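The authors deposited normalized counts per gene (a signal that is never negative) for 6 libraries of paired-end RNA-seq. The submitters' processing notes name FastQC, STAR, featureCounts and DESeq2 and the build GRCm38, with no versions, and the study's methods name DESeq2 with an adjusted threshold of 0.1. The name of the table mentions surrogate variables, and whether the values were adjusted for them is not given in the sources used here. Of the values up to about 20 times a library's smallest one, 14.6% to 45.4% lay within 0.1 of a whole multiple of it, so reads were not recovered and no count test was run. Of 26789 Ensembl identifiers, 26507 matched a symbol. Exon lengths came from the GENCODE annotation of GRCm38, and overlaps of exons between genes were counted in it.

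Differences were fitted in R 4.3.3 with limma 3.58.1 (lmFit, eBayes) on log2(normalized count + 1) for the 18007 genes whose mean over the 6 libraries reached 10, two-sided, with Benjamini-Hochberg adjustment over all of them. The fit was also run on simulated data, where it missed many changes when replicates spread widely. A gene that did not pass may therefore still differ. A fold change on this scale is E3–E12 diet minus control and understates the change of low genes. Members and gene lists were chosen with earlier results of these data known. Described in full were members whose groups did not overlap, in each role group the 3 with the highest mean per kilobase of exon and the 1 with the smallest limma p, and any member listed at 0 somewhere although its mean reached 100 normalized counts. From each further list of mural, signal, fibroblast, basement membrane or enzyme genes, those without overlap and the 2 with the smallest p were named. Alternatives varied the pseudocount, the filter, the scaling, the weights of libraries, the replicate block and the libraries kept.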

Additional observations from a re-analysis of the deposited data

How the results depend on the processing

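No member passed the adjusted threshold of 0.1 under any alternative run (0 in each). Over all genes tested, 1 passed with a minimum mean of 50 normalized counts and 5 with limma's weights for libraries, against 0 otherwise. Members with an unadjusted p under 0.05 numbered 2 of 41 with library weights (Col3a1 and Lum). With those weights 1205 of all 18007 genes had such a p, in place of 327. With each library left out in turn, 0 to 2 members had one. Higher mean log2 levels in E3–E12 diet mice were found for 16 members with library weights and for 16 to 34 with a library left out, and 0 to 7 members had groups without overlap. Library weights turned the log2 fold changes of Rgs5 (-0.58), Sparc (-0.03) and Col4a1 (-1.74). They also moved Bgn from 1.04 to 0.04, Timp3 from -0.33 to -1.07, Lum from -1.83 to -2.94 (unadjusted p = 0.00892), Col4a2 from 0.71 to 0.27, Nid1 from 0.58 to 0.10, Myl9 from 1.58 to 0.15, Acvrl1 from 1.38 to 0.45, Col4a4 from 1.14 to 0.24 and Col4a5 from 1.09 to 0.42. Nid2 moved from -1.06 to -0.62 with library weights and Colgalt2 from 1.81 to 1.18. Because of its 0, Col4a1 changed with the pseudocount, to 0.15 with 10 and 1.54 with 0.5, and was 0.33 after quantile normalization. With a pseudocount of 10, Cox4i2 fell from 2.17 to 1.08 and Col5a3 from 3.45 to 2.17, and after quantile normalization Timp3 was -0.15. Over the libraries left out, Rgs5 ran from -0.65 to 1.69, Sparc from -0.40 to 0.42, Timp3 from -0.72 to 0.24, Col4a2 from -0.18 to 1.60, Nid1 from -0.45 to 1.59 and Col4a1 from -2.10 to 3.02. The median over the members ran from -0.18 to 0.96, was -0.28 with library weights and lay between 0.34 and 0.68 under the other settings. Equal library totals moved the median of all genes from 0.09 to 0.20 and that of the members to 0.55. Dividing by the microglia markers, an alternative chosen after seeing the data, moved them to 0.31 and 0.68. A trended prior variance, also added then, gave 268 genes with an unadjusted p under 0.05 in place of 327, and 0 members. The cause of these shifts was not tested. Same-numbered libraries deviated together with correlations of 0.260, 0.035 and 0.142, and differently numbered ones had correlations from -0.251 to 0.087. Control replicates 1 and 3 correlated best with the library of their own number, and control replicate 2 with E3–E12 diet replicate 3. The labels do not say that a number marks a shared litter or batch, so the block of replicates was run only as an alternative. With the replicate block, 0 members passed and 1 of 41, Fbln1, had an unadjusted p under 0.05, beside 468 of all 18007 genes. Count tests were not run, since whole reads were not recovered, and the depth behind a single value cannot be told from the table.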

Other observations

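Markers of neurons and red cells also differed between libraries. The 8 neuron markers summed to 1858, 690.4 and 1045 among controls and to 2022, 1189.8 and 882 among E3–E12 diet libraries, lowest in control replicate 2. In that library 4 of the 8 had their lowest value, while Gad1 had its highest (493). There Rbfox3, Stmn2 and Syt1 were listed at 0 (37.5%, against 16.2% of all genes tested). Slc17a6 was listed at 0 in control replicate 3 and E3–E12 diet replicate 3. The synaptic protein Snap25 was the most abundant of them in 5 libraries and Gad1 in control replicate 2. The 5 erythroid markers summed to 219 normalized counts at most, in control replicate 3, and to 2.31 at least, in E3–E12 diet replicate 2, where 4 of them were listed at 0.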
